A study of Mus musculus with 8 samples.

Results

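The complement system is a cascade of secreted and membrane proteins that tags microbes, dying cells and debris for removal. The classical pathway starts when C1q, a hexamer built from C1QA, C1QB and C1QC chains, binds antibody complexes or cell surfaces. The proteases C1r and C1s are then activated, and C1s cleaves C4 and C2. The alternative pathway uses factor B (Cfb) and factor D (Cfd), and both routes converge on C3. Serping1 encodes the C1 inhibitor, the plasma serpin that inactivates C1r and C1s. Complement proteins are secreted into milk as well as into plasma, and C1q is made mainly by macrophages and dendritic cells rather than by the liver.

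Expression of 9 complement genes was examined in total mammary cell suspensions of parous and virgin FVB/NHanHsd mice: C1qa, C1qb, C1qc, C2 and C4b of the classical pathway, C3, Cfb and Cfd of the alternative pathway, and the regulator Serping1. A gene was included when a probe set of the Affymetrix Mouse Gene 1.0 ST array named that gene alone in the array annotation. By this rule 7 of the 9 genes had 1 probe set each, among 34760 probe sets and 19937 named genes in all, while C3 and Cfd were not analysed here. The alternative pathway was thus represented by Cfb only.

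The parous group consisted of 4 arrays from mice that were mated when 42 days old, lactated for 21 days and then went through involution, and the virgin group of 4 arrays from age-matched mice that had not been mated. For involution the labels give 28 days, whereas the methods of the study give a longer interval after weaning. Each array held RNA pooled from the fourth mammary glands of 5 mice, so n counts pools and a pool hides the differences among its mice. The suspensions were enriched for epithelium but not sorted: lymph nodes, adipocytes and red blood cells were removed and fibroblasts were reduced by attachment. Values are log2 RMA values, which are background-corrected and quantile normalized, and a difference of 1 on this scale is a doubling. Levels were not compared between genes, because probe sets differ in their response.

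The labels call the cells epithelial. The luminal keratins Krt8 and Krt18 were measured, with means of 13.11 and 13.02 in parous and 13.28 and 13.13 in virgin suspensions. Markers of other cell types were measured too. Among them were the fibroblast gene Dcn (12.89 in parous and 12.58 in virgin suspensions), the macrophage gene Lyz2 (11.67 and 11.59) and the adipocyte and endothelial gene Fabp4 (11.77 and 11.70). The suspensions were thus mixtures, and the share of each cell type was not measured. Medians of the arrays ranged from 6.29 to 6.43. On the first principal component over all probe sets virgin replicates 2 and 4 lay at -32.7 and -66.8, and the other 6 arrays between 9.35 and 25.8. Cell cycle transcripts were also most abundant in these pools. After centring of each gene over the 8 arrays, 11 proliferation genes averaged 1.35 and 1.91 in virgin replicates 2 and 4, -0.25 in both other virgin arrays and -0.94 to -0.52 in the parous arrays. The main values are therefore also given without these 2 virgin arrays.

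The study's criteria asked for more than a 1.5-fold difference, an adjusted p below 0.05 and a mean log2 value above 2, and none of the 7 complement genes met them in limma. Among all probe sets 0.397% passed. At an unadjusted p under 0.05 C2, C4b and Serping1 were higher in parous suspensions and no gene was lower, against 5.26% of all probe sets higher at that level. All 7 genes had a log2 fold change above 0, with a median of 0.41, whereas the median of all probe sets was 0.0016 and 50.4% of them were above 0. The median of the 7 genes was 0.098 without virgin replicates 2 and 4, and 0.20 without virgin replicate 4 alone. With both arrays left out C1qa and Cfb had log2 fold changes below 0. Without both arrays, with only virgin replicates 1 and 3 left in that group, C2, C4b and Serping1 had an unadjusted limma p under 0.05. At that level 4.09% of all probe sets were higher. The left-out arrays were the lowest for these 3 genes, so leaving them out cut the virgin spread as well as the difference. These p-values are thus no separate support. In this fit none of the 7 passed, against 0.288% of all probe sets. In C2, C4b and Serping1 every parous array lay above every virgin array, as in 3.54% of all probe sets. In the 3 C1q chains and Cfb the groups overlapped. In an unsorted suspension, fewer cells of a type and less RNA per cell cannot be told apart.

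**Figure D1:**
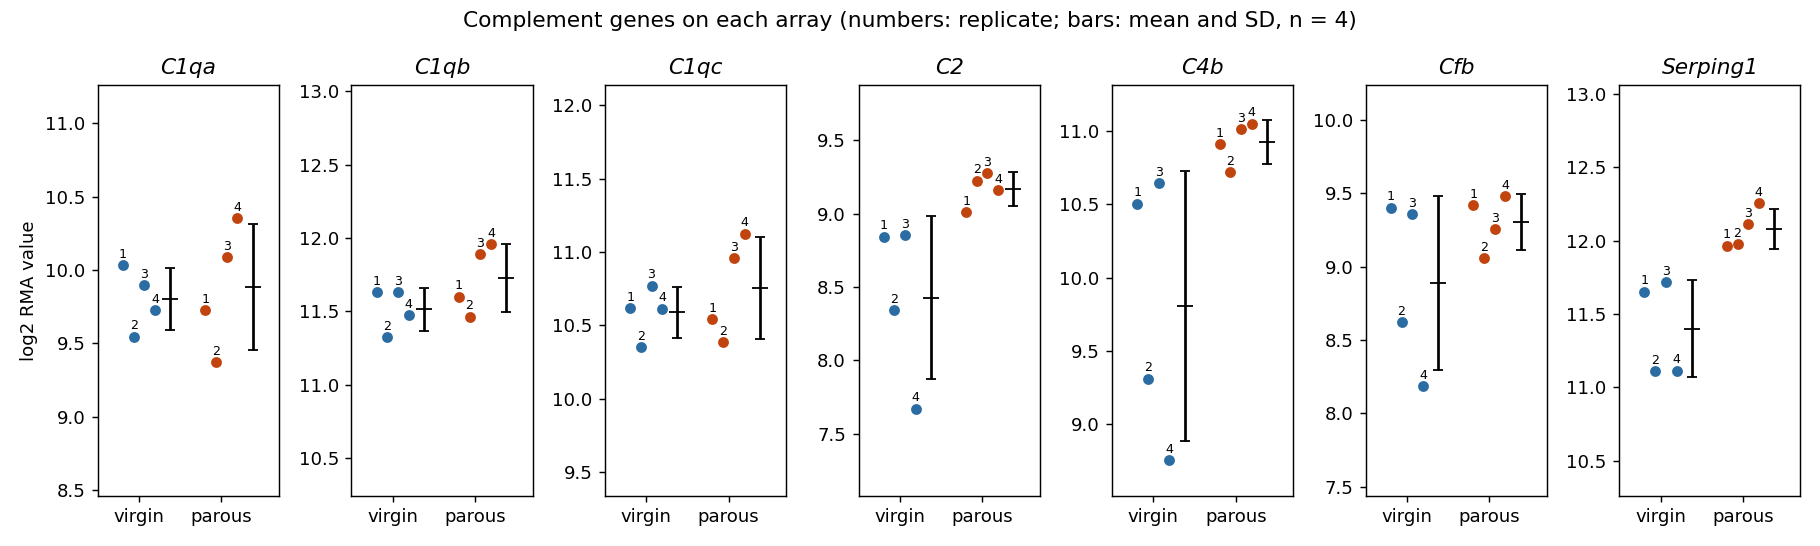
Log2 RMA values of the 7 complement genes on the individual virgin (4) and parous (4) arrays, labelled with the replicate number, with the mean and SD (n = 4) beside each group; the panels have different limits but the same span. For C2, C4b, Cfb and Serping1 virgin replicates 2 and 4 are the lowest arrays, and for the C1q chains parous replicates 3 and 4 are the highest.

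The C1q chains, which recognize the target and start the classical pathway, differed little between the groups. C1qa had log2 values of 9.73, 9.37, 10.09 and 10.35 in parous replicates 1 to 4 and of 10.03, 9.55, 9.90 and 9.73 in virgin replicates 1 to 4. The lowest and the highest of the 8 values of C1qa were both parous. Its log2 fold change, parous minus virgin, was 0.084 (standard error, SE, 0.21, 95% confidence interval, CI, -0.39 to 0.56, limma adjusted p = 0.93). With 1 array left out it ranged from -0.071 without parous replicate 4 to 0.26 without parous replicate 2, and it was -0.080 without virgin replicates 2 and 4.

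C1qb had values of 11.60, 11.46, 11.89 and 11.96 in parous and of 11.63, 11.32, 11.63 and 11.47 in virgin replicates 1 to 4. The difference was 0.21 (SE 0.13, 95% CI -0.084 to 0.51, limma adjusted p = 0.60). It was 0.14 without parous replicate 4, 0.15 without virgin replicate 2 and 0.098 without virgin replicates 2 and 4. Parous replicates 3 and 4 were above all virgin arrays for C1qb, whereas parous replicates 1 and 2 lay within the virgin range.

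C1qc had values of 10.54, 10.39, 10.96 and 11.12 in parous and of 10.62, 10.35, 10.77 and 10.61 in virgin replicates 1 to 4. Parous replicates 3 and 4 were again above all virgin arrays, and the groups overlapped. The log2 fold change of C1qc was 0.16 (SE 0.17, 95% CI -0.23 to 0.56, limma adjusted p = 0.79). With 1 array left out it ranged from 0.040 without parous replicate 4 to 0.29 without parous replicate 2, with 0.085 without virgin replicate 2 and 0.096 without parous replicate 3. Without virgin replicates 2 and 4 it was 0.058. The upper limits of the 3 intervals were 0.51 to 0.56. Exact permutation tests, 2-sided, gave p = 0.71, 0.26 and 0.46 for C1qa, C1qb and C1qc, where 4 arrays against 4 cannot go below 0.029.

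The 3 chains had a common order across the parous arrays, with replicate 4 highest, then replicates 3, 1 and 2. Among the virgin arrays replicate 2 was lowest for each chain. The spread of the chains was larger among parous than among virgin arrays, with SDs of 0.43, 0.23 and 0.35 against 0.21, 0.15 and 0.17 for C1qa, C1qb and C1qc (n = 4 per group). The chains are encoded side by side in the genome, and the macrophage factor PU.1 is known to drive them. RefSeq promoter windows (GRCm38.p6, 250 bases before to 50 after the start) were available for 2 of the 7 genes. These windows, of C1qb and C1qc, are shown. C1qb lies on the minus strand at chr4:136886151-136886450 and C1qc on the minus strand at chr4:136892865-136893164. Capitals mark the PU.1 core GAGGAA on either strand.
C1qb: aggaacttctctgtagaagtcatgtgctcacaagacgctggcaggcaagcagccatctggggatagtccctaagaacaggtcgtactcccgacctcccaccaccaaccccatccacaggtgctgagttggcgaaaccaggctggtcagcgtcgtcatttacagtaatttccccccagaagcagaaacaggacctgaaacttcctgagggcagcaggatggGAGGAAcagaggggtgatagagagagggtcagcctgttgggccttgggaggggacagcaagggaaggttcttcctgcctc
C1qc: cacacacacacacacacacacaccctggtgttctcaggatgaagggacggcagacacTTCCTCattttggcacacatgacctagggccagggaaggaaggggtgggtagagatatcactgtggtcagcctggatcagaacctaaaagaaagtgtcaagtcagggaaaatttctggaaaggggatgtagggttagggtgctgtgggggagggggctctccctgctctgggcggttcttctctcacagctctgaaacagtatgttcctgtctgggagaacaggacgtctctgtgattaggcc

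The motif began at base 221 of the C1qb window on the printed strand, and at base 58 of the C1qc window on the opposite strand. GAGGAA stood on either strand in 28.3% of 32817 promoter windows, so a match is common. The TATA box TATAAA (13.6% of windows), the interferon-stimulated response element (GAAA, any 2 bases, GAAA; 3.43%) and the gamma-activated site TTCNNNGAA (8.29%) were also searched on both strands, and these letters are not in either window. A match is a description of the letters and not of binding.

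C4b and C2, the substrates that C1s cleaves to form the classical C3 convertase, had the largest positive differences among classical genes. C4b had log2 values of 10.91, 10.72, 11.01 and 11.05 in parous replicates 1 to 4 and of 10.51, 9.31, 10.65 and 8.76 in virgin replicates 1 to 4. The parous arrays lay above the virgin arrays, but the gap between the lowest parous and the highest virgin array was only 0.074. The log2 fold change of C4b was 1.12 or 2.17-fold (SE 0.40, 95% CI 0.22 to 2.02, limma adjusted p = 0.33). Virgin values had an SD of 0.92 against 0.15 in parous arrays (n = 4 per group), and without virgin replicates 2 and 4 the log2 fold change was 0.35 (adjusted p = 0.52). C4b has a close paralog, C4a, whose probe set had a log2 fold change of 0.66 (limma adjusted p = 0.25). Signal shared between the 2 genes was not tested.

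C2, the protease precursor that pairs with C4b, had values of 9.01, 9.22, 9.28 and 9.16 in parous and of 8.84, 8.34, 8.85 and 7.67 in virgin replicates 1 to 4. The groups were apart by 0.16, and virgin replicate 4 was lowest by far. The log2 fold change of C2 was 0.74 or 1.67-fold (SE 0.25, 95% CI 0.18 to 1.30, limma adjusted p = 0.31). It was 0.49 without virgin replicate 4 (adjusted p = 0.27) and 0.32 without virgin replicates 2 and 4 (adjusted p = 0.48).

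Cfb, the alternative pathway counterpart of C2 had overlapping groups. Values of Cfb were 9.42, 9.06, 9.26 and 9.48 in parous and 9.40, 8.62, 9.36 and 8.18 in virgin replicates 1 to 4. Virgin replicates 1 and 3 fell within the parous range, and virgin replicates 2 and 4 lay below it. The log2 fold change of Cfb was 0.41 (SE 0.27, 95% CI -0.20 to 1.02, limma adjusted p = 0.63, exact permutation p = 0.29). Without virgin replicates 2 and 4 it had the opposite sign, at -0.077 (adjusted p = 0.95).

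Serping1, the inhibitor of C1r and C1s, had the smallest p of the 7 genes. It had log2 values of 11.97, 11.97, 12.11 and 12.25 in parous and of 11.65, 11.11, 11.72 and 11.11 in virgin replicates 1 to 4. The groups were separated by 0.25, the widest gap among these genes, and virgin replicates 2 and 4 were again lowest. Its log2 fold change was 0.68 or 1.60-fold (SE 0.16, 95% CI 0.31 to 1.05, unadjusted p = 0.0026, limma adjusted p = 0.16). Without virgin replicates 2 and 4 it was 0.39 (unadjusted p = 0.0099, adjusted p = 0.39). For C2, C4b and Serping1 the exact permutation test, 2-sided, gave p = 0.029, the smallest that 4 arrays against 4 allow.

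**Figure D2:**
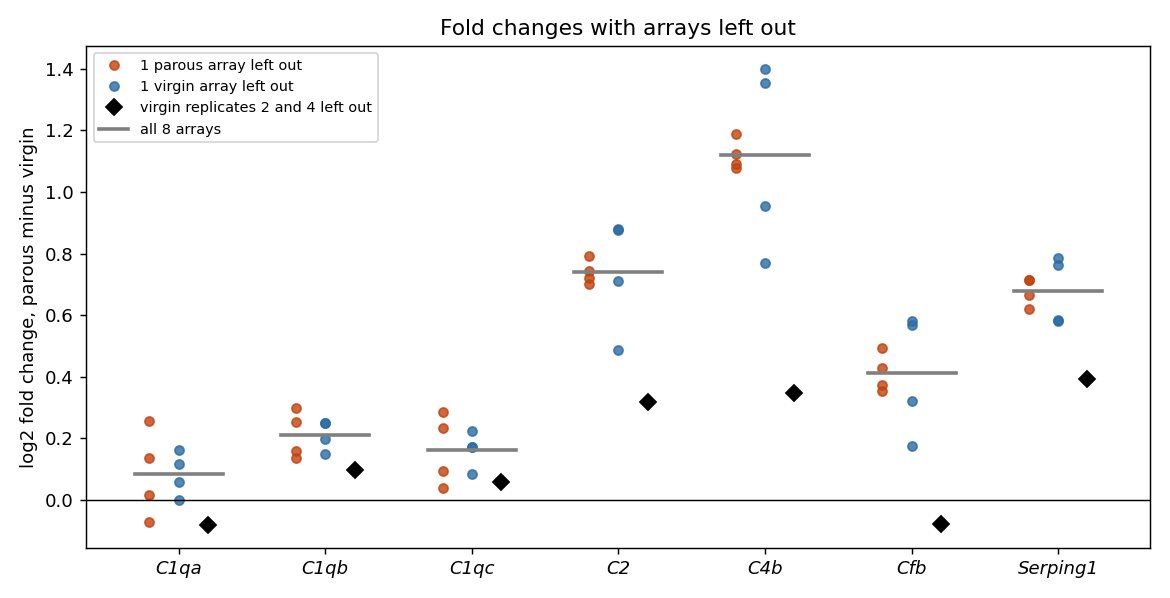
Log2 fold changes (parous minus virgin) of the 7 genes with all 8 arrays (grey bar), with 1 parous or 1 virgin array left out (points) and with virgin replicates 2 and 4 left out together (diamonds). The diamonds lie at 0.35 for C4b against 1.12 with all arrays, and at -0.080 and -0.077 for C1qa and Cfb.

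Virgin replicates 2 and 4 were the 2 lowest arrays for C2, C4b, Cfb and Serping1, which is 4 of the 7 genes. The same held for 20 of 43 other complement genes and for 9.55% of all probe sets. Averaged over virgin replicates 2 and 4 the values of C4b, C2, Cfb and Serping1 were 9.03, 8.01, 8.40 and 11.11. Averaged over virgin replicates 1 and 3 they were 10.58, 8.85, 9.38 and 11.68. The difference within the virgin group was therefore larger than that between groups for C4b, C2 and Cfb, and smaller for Serping1. The virgin SD was 6.19, 4.79, 3.11 and 2.43 times the parous SD for C4b, C2, Cfb and Serping1, and 0.49 to 0.62 times for the C1q chains.

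Of 45 other complement genes listed by role, 43 had a probe set. None of the 43 passed the criteria in limma, where 0.397% of all probe sets did. In parous suspensions 10 were higher and 2 were lower at an unadjusted p under 0.05, where 5.26% of all probe sets were higher and 6.14% lower. A log2 fold change above 0 was found for 32, with a median of 0.18. Parous arrays lay entirely above virgin arrays for 7 of the 43, and entirely below for 2, against 3.54% and 4.06% of all probe sets. When virgin replicates 2 and 4 were left out the median was 0.078, with an unadjusted p under 0.05 for 6 higher and 3 lower genes, against 4.09% and 3.47% of all probe sets. By role the medians without these arrays were 0.20 for initiators and proteases, 0.045 for fluid phase and for membrane regulators, 0.031 for terminal genes, where the sign turned, and 0.018 for receptors.

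Of 12 other initiators and proteases, 5 were higher at an unadjusted p under 0.05 and none was lower, with a median of 0.33. Of all probe sets 5.26% were higher at that level. Here C1s1 and C1ra, the proteases that C1q activates and that Serping1 inhibits, had log2 fold changes of 0.74 and 0.66 (SEs 0.19 and 0.22, limma adjusted p = 0.19 and 0.29). For both the parous arrays lay above the virgin arrays, at 9.41 to 9.95 against 8.58 to 9.33 for C1s1 and at 8.00 to 8.35 against 6.96 to 7.91 for C1ra. Without virgin replicates 2 and 4 the values were 0.43 and 0.27. In that fit 4 of the 12 were higher and 1 was lower at an unadjusted p under 0.05. Of all probe sets 4.09% were higher and 3.47% lower. The probe sets of 5 of these 12 genes were below the median of every array.

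Among 7 terminal pathway genes, which build the membrane attack complex, C7 stood apart with the largest difference of all 50 complement genes measured. C7 had parous values of 9.61 to 9.91 and virgin values of 7.51 to 9.09, a log2 fold change of 1.60 (SE 0.33, limma adjusted p = 0.11). It passed without virgin replicate 3 (1.89, adjusted p = 0.028) and had 0.96 without virgin replicates 2 and 4 (adjusted p = 0.097). The median of the terminal genes was -0.047, and 4 of the 7 were below the median of every array.

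Of 7 other fluid phase regulators, with a median of 0.11, 1 was higher at an unadjusted p under 0.05, against 5.26% of all probe sets. That gene was Cfp, properdin, which stabilizes the alternative convertase (log2 fold change 0.53, SE 0.21, limma adjusted p = 0.38). Its groups overlapped, at 10.32 to 11.12 in parous and 9.87 to 10.58 in virgin arrays. It had 0.26 without virgin replicates 2 and 4. Of these 7 genes 4 were below the median of every array.

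Of 8 membrane regulators, with a median of 0.14, Csmd1 was higher and Susd4 lower at an unadjusted p under 0.05. Of all probe sets 5.26% were higher and 6.14% lower at that level. Csmd1, a membrane protein with complement control domains, had 6.91 to 7.18 in parous and 6.35 to 6.66 in virgin arrays, a log2 fold change of 0.52 (SE 0.11, limma adjusted p = 0.11). Susd4, a membrane protein with sushi domains, had 6.50 to 6.86 against 6.99 to 8.74, a log2 fold change of -1.19 (SE 0.37, limma adjusted p = 0.27). Without virgin replicates 2 and 4 these were 0.37 and -0.48.

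Of 9 complement receptors, the median was 0.28, with 2 higher and 1 lower when p was not adjusted (under 0.05). Of all probe sets 5.26% were higher and 6.14% lower at that level. Itgax, the alpha chain of complement receptor CD11c/CD18 on dendritic cells and some macrophages, had 6.25 to 6.56 in parous and 6.93 to 7.68 in virgin arrays. Its log2 fold change was -0.87 (SE 0.18, limma adjusted p = 0.12), and -0.53 without virgin replicates 2 and 4. Vsig4, a receptor of tissue macrophages for C3 fragments, had overlapping groups and a log2 fold change of 0.81 (SE 0.34, limma adjusted p = 0.41). It had 0.19 without virgin replicates 2 and 4.

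**Figure D3:**
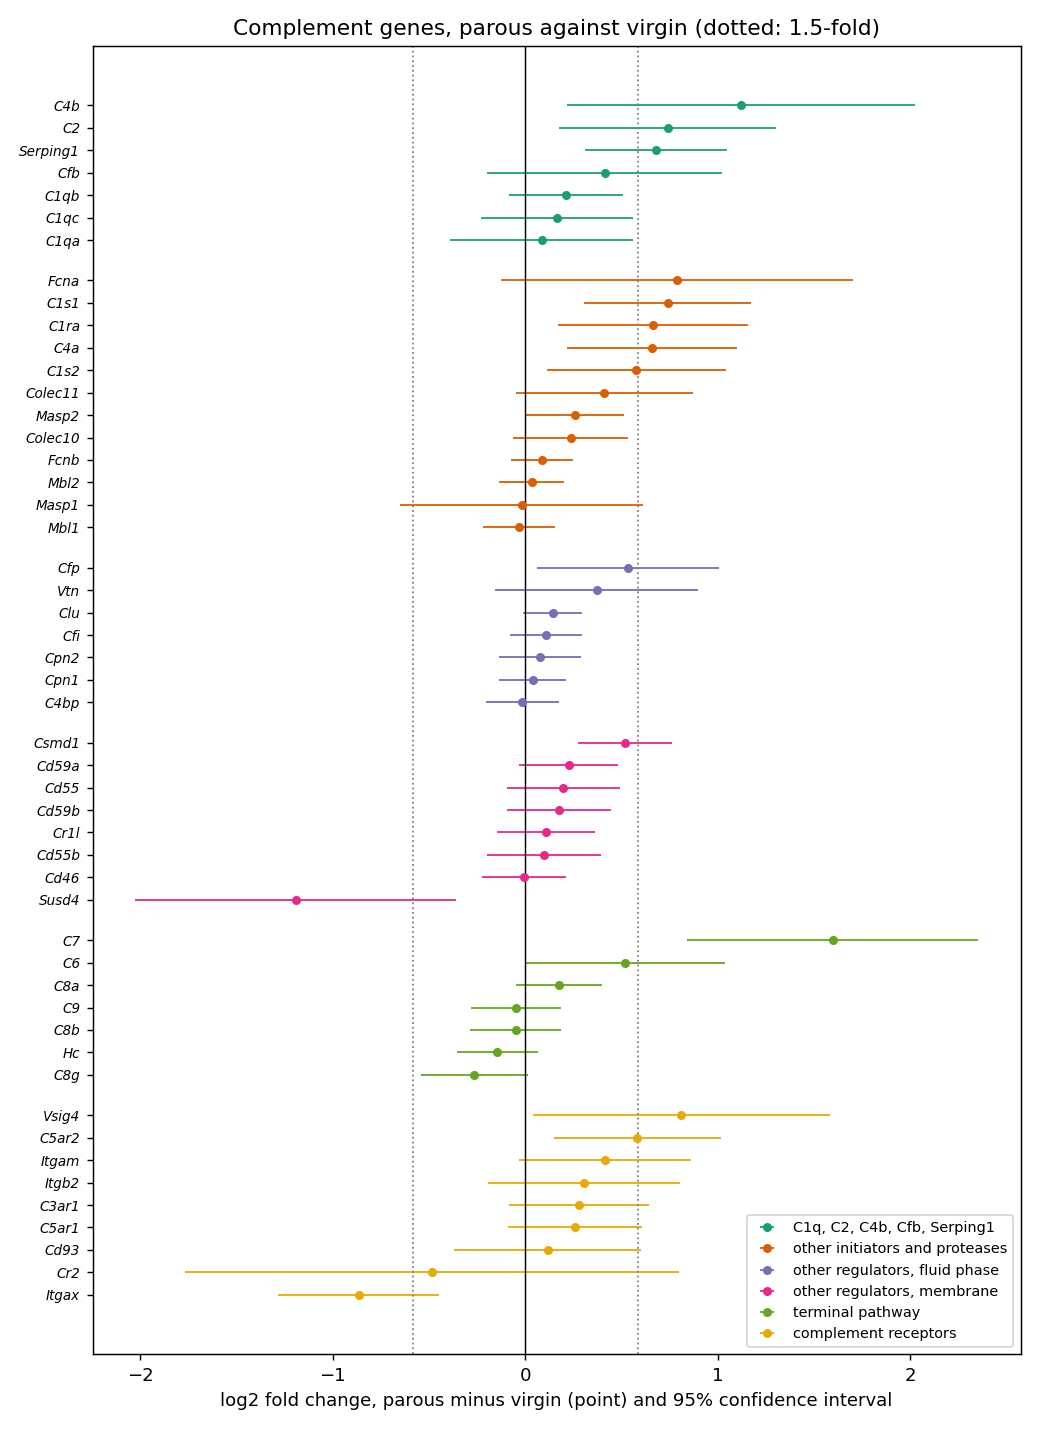
Log2 fold changes (parous minus virgin) of the 7 genes and of 43 other complement genes by role, with 95% confidence intervals from limma; dotted lines mark a 1.5-fold difference. C7 has the largest value, at 1.60, and Susd4 the lowest, at -1.19, and no gene passed the criteria.

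Markers of cell types that can make complement were set beside these values. Of 14 macrophage markers none passed, with a median of 0.20. At an unadjusted p under 0.05 there were 2 higher and 1 lower, against 5.26% and 6.14% of all probe sets. The lower gene was Aif1 (log2 fold change -0.40, limma adjusted p = 0.11). The mean log2 level of the 14 markers was 9.05 to 9.50 in parous and 8.81 to 9.28 in virgin arrays. None of them was below the median of every array. The mean of the centred macrophage markers was 0.041, -0.13, 0.20 and 0.31 in parous replicates 1 to 4, the order of the C1q chains. It was 0.095, -0.22, 0.090 and -0.38 in virgin replicates 1 to 4, so that the virgin order differed from that of the chains, which were lowest in replicate 2. The markers with the highest means, Lyz2 and Cd14, had log2 fold changes of 0.076 and 0.35 (limma adjusted p = 0.90 and 0.12). The median of the macrophage list was 0.072 without virgin replicates 2 and 4. The part of macrophages in the C1q values was not tested.

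Of 10 fibroblast markers none passed, with 5 higher at an unadjusted p under 0.05, none lower and a median of 0.29. Of all probe sets 5.26% were higher at that level. Fibroblasts are a known source of C4, C1r, C1s and the C1 inhibitor. The mean level of the markers was 10.41 to 11.01 in parous and 10.04 to 10.62 in virgin arrays, and the centred mean was -0.48 and 0.097 in virgin replicates 2 and 4. Virgin replicate 4, the lowest array for C4b and C2, was thus above the other virgin arrays in this list. Dcn and Fn1, with the highest means, had log2 fold changes of 0.31 and 0.28 (limma adjusted p = 0.31 and 0.44). Of the 10 markers 8 had a log2 fold change above 0, whereas the collagen genes Col1a1 and Col3a1 were at -0.21 and -0.24. The median of the fibroblast list was 0.21 without virgin replicates 2 and 4. In that fit 3 of the 10 were higher at an unadjusted p under 0.05 and none was lower, against 4.09% of all probe sets higher. The part of fibroblasts in C4b, C2 and Serping1 was not tested.

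Of 9 adipocyte markers none passed, and no gene had an unadjusted p under 0.05. The median of this list was 0.11, and 3 of them, Adipoq among the 3, were below the median of every array. Of 8 endothelial markers none passed, none was at an unadjusted p under 0.05, and the median was 0.17. Of 11 plasma cell and B cell markers 3 passed, against 0.397% of all probe sets. All 3 were higher: Jchain (5.14-fold), Derl3 (2.46-fold) and Tnfrsf17 (2.36-fold). At an unadjusted p under 0.05, 5 of the 11 were higher and 1, Sdc1 (log2 fold change -0.24), was lower. Of all probe sets 5.26% were higher and 6.14% lower at that level. The median of the 11 markers was 0.61. The adipocyte, endothelial and plasma cell and B cell medians were -0.0059, -0.056 and -0.015 without virgin replicates 2 and 4. In that fit Derl3 and Tnfrsf17 passed, but not Jchain, and 0.288% of all probe sets passed.

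Of the epithelial lists, 8 luminal markers had a median of -0.24 and none passed. Of these, 6 were lower at an unadjusted p under 0.05 and none was higher, against 6.14% of all probe sets lower. Parous arrays lay entirely below virgin arrays for 5 of the 8, against 4.06% of all probe sets. The 7 luminal progenitor markers had a median of 0.28 and none passed. Among the 7, 3 were higher and none lower at an unadjusted p under 0.05, against 5.26% of all probe sets higher. Wnt4 passed as lower among 5 hormone-sensing luminal markers (median -0.91), and Krt17 among 10 basal and myoepithelial markers (median -0.30). Of all probe sets 0.397% passed. At an unadjusted p under 0.05, 4 of the hormone-sensing and 5 of the basal markers were lower and none was higher. Of the 11 proliferation genes none passed and all were lower at an unadjusted p under 0.05, with a median of -1.45. The proliferation median without virgin replicates 2 and 4 was -0.43 with 6 genes lower at that level. In this fit Wnt4 and Pgr passed as lower and Krt17 did not pass, where 0.288% of all probe sets passed. The luminal, luminal progenitor, hormone-sensing and basal medians were then -0.16, 0.17, -1.01 and -0.26. At that level 1, 3, 5 and 4 genes of these lists were lower, against 3.47% of all probe sets. Higher were 3 luminal progenitor genes, against 4.09%. The proliferation genes were highest in virgin replicates 2 and 4, the arrays in which C2, C4b, Cfb and Serping1 were lowest, and their part in those values was not tested.

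**Figure D4:**
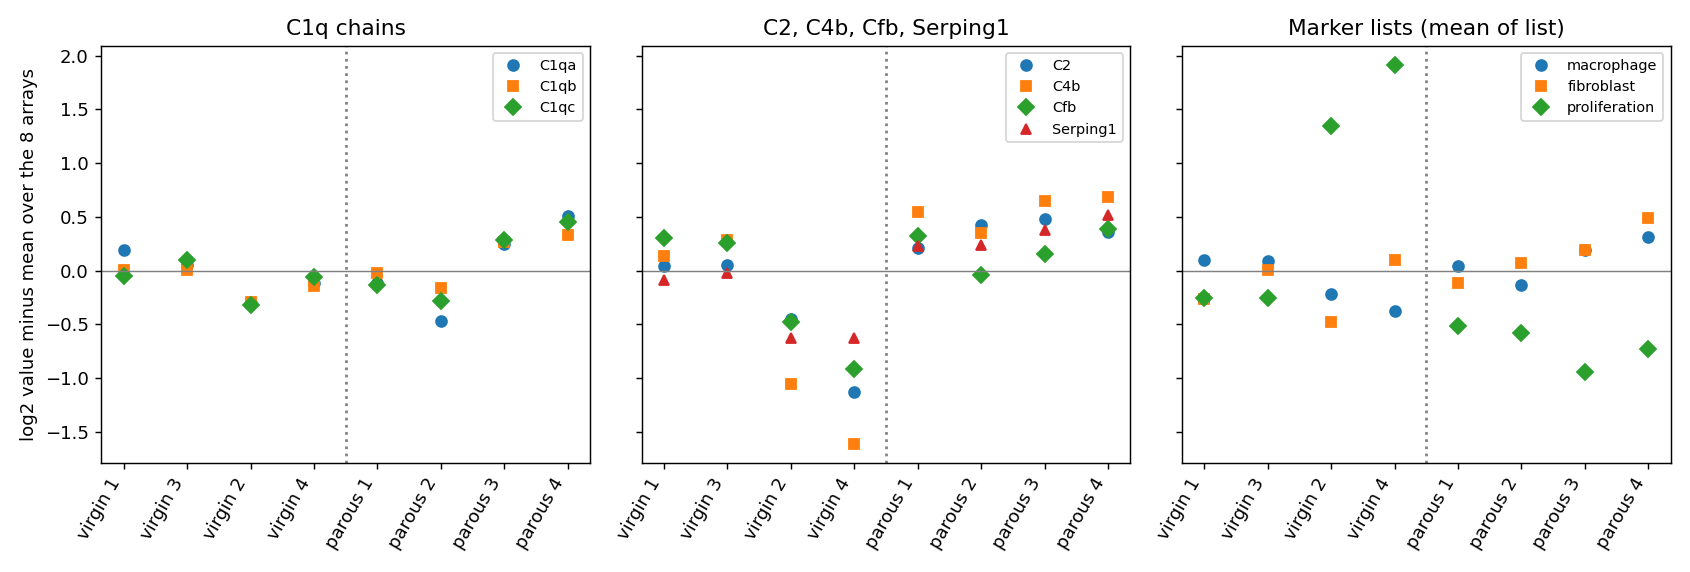
Log2 values of the C1q chains, of C2, C4b, Cfb and Serping1, and the mean of 3 marker lists, after subtraction of the mean over the 8 arrays, with the virgin arrays left of the dotted line. C2, C4b, Cfb and Serping1 are lowest in virgin replicates 2 and 4, where the proliferation genes are at 1.35 and 1.91.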

How the data were processed

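RNA of 4 parous and 4 virgin suspensions was hybridised to Affymetrix Mouse Gene 1.0 ST arrays, each from a pool of 5 mice. The deposited values are log2 values that the authors made with rma() of affy (version not given in the sources used here), by background correction, quantile normalization and summary to 1 value per probe set. Quantile normalization removes differences in overall level between arrays. Of the probe sets 21640 named 1 gene, 1321 several and 11799 none here, and 21553 symbols were looked up through the gene identifier, with the assembly GRCm38.p6.

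Groups were compared in R 4.3.3 with limma 3.58.1 (lmFit, eBayes, 2-sided, no covariate), and p-values of the 34760 probe sets were adjusted by Benjamini-Hochberg. Exact permutation tests were run for single genes. Other genes are represented by their probe set with the highest mean. Named were all 7 genes measured, in each role list up to 2 genes with the largest difference at an unadjusted p under 0.05, marker genes that passed, and the most abundant markers of macrophages, fibroblasts and luminal cells. C4a, as a paralog, Adipoq, Pgr, Aif1, Sdc1, Col1a1 and Col3a1 were named after their values were seen. The genes and lists were chosen with earlier results of these data known. Virgin replicates 2 and 4 were singled out from values of these data, for the 7 genes as well. Leaving them out for the gene lists was added later, also after seeing the data. The procedure was tested on simulated data. The number of arrays limits the precision, and p-values set the group difference against the spread between pools, not between mice.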

Additional observations from a re-analysis of the deposited data

How the results depend on the processing

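No complement gene of the 7 passed the criteria in 19 of 20 alternatives, and 3 did (C2, C4b and Serping1) with an unadjusted p under 0.05. In that alternative 1030 of the 34760 probe sets passed. Of the 43 other complement genes none passed in 18 alternatives, 7 with an unadjusted p, and 0 to 1 with 1 array left out, where C7 passed without virgin replicate 3. The median of the 7 genes, 0.41 with all arrays, was 0.098 without virgin replicates 2 and 4, 0.23 with array weights and 0.20 to 0.58 with 1 array left out. C1qb, C1qc, C2, C4b and Serping1 kept a positive log2 fold change in all 20 alternatives. C1qa changed sign, at -0.080 without virgin replicates 2 and 4, -0.037 with array weights and -0.071 to 0.26 with 1 array left out (negative without parous replicate 4 or virgin replicate 2), and Cfb was at -0.077 without virgin replicates 2 and 4. The cause was not tested. Across the fits with other arrays, normalization, moderation or probe sets the adjusted p of Serping1 was 0.089 to 0.42, of C2 0.18 to 0.65 and of C4b 0.15 to 0.70.

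The study describes separate experiments that each held virgin and parous mice, which would pair the arrays, but whether the replicate numbers mark those experiments is not stated. Deviations of same-numbered arrays from their group means correlated at 0.12, 0.18, -0.057 and 0.31 for numbers 1 to 4, above 0.1 for 3 of the 4, and 4 of 8 arrays were most like the other group's array of their own number. The fit without the block was kept, and the pairing was not settled by these values. With the replicate block 0 of the 7 and 0 of the 43 genes passed, and the log2 fold changes were the same (Serping1 0.68, adjusted p = 0.24). Over all probe sets 138 passed, 49 with the block, 11 with the unmoderated test and 42 to 179 with 1 array left out.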

Other observations

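For each of the 7 genes the 3 most similar of 21633 other probe sets naming 1 gene were listed by Pearson's r over the 8 arrays, as a description. These are the extremes of a large screen over few arrays, and r was 0.963 to 0.998. C4b was most similar to Ces2g, Ccn5 and Gas6, and C2 to Kcne4, Nfkbia and Enpp5. Cfb was most similar to N4bp2l1, Pkd1 and Tgfbr2, and Serping1 to Frmd4b, Gnptg and Slit3. For these 4 genes virgin replicates 2 and 4, which stood apart, were the lowest arrays.

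C1qb was most similar to Ticam2, an adaptor of Toll-like receptor signaling, to Ctsa, a lysosomal carboxypeptidase, and to Taar5. C1qa was most similar to 6030468B19Rik, Nxnl1 and Zfp819, and C1qc to Olfr1444, Olfr96 and Lipi. The last 6 and Taar5, 7 of the 21 genes, were below the median of every array, whereas C1qa and C1qc were above it on each. What these dim probe sets and C1q share across the arrays was not tested.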
